A study of Mus musculus with 12 samples.

Results

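Entry of adult neural stem cells (NSCs) into quiescence was compared between 2 mouse NSC lines, ANS4 and BL6, when EGF/FGF was exchanged for BMP4. The comparison was read from the line-by-condition contrast, in which the change of each gene on BMP4 in ANS4 is subtracted from the change of the same gene in BL6, and it used 8 of the 12 RNA-seq libraries of the series, with the remaining 4 holding NSCs in BMP/FGF. ANS4 came from MF1 mice and BL6 from C57BL/6 mice, both from the subventricular zone of wild-type adults of 6 to 8 weeks, and each line was used below passage 10. Libraries were ANS4 EGF/FGF, ANS4 BMP, BL6 EGF/FGF and BL6 BMP with 2 biological replicates each. In the EGF/FGF libraries NSCs grew in EGF and FGF2 at 10 ng/ml each, and in the BMP libraries they were held for 3 days in BMP4 at 10 ng/ml with no growth factor. Each strain was represented by 1 line, so line and strain cannot be told apart here. Counts were assigned on mm10, a C57BL/6 genome, and the effect of MF1 sequence on the counts was not tested.

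BMP4 binds paired serine/threonine kinase receptors that phosphorylate Smad1, Smad5 and Smad9, which enter the nucleus with Smad4 and switch on targets such as the Id genes. In adult NSCs this signal, given without mitogens, stops the cell cycle, silences the FGF and EGF response genes and raises astrocyte and quiescent stem cell genes, whereas EGF and FGF2 keep the cells dividing through the MAP kinase pathway. Adult NSCs of the subventricular zone give rise mainly to interneurons of the olfactory bulb and, less often, to oligodendrocytes and astrocytes.

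Library totals ran from 18069052 to 19451818 estimated counts, and values are given as CPM, the counts scaled to library size, after TMM factors of 0.984 to 1.03, except that summed levels of cell type markers were taken without these factors. A level from 3 counts corresponds to 0.154 to 0.166 CPM. Of the 17365 genes in the table, 13509 passed the filter on low counts and were tested. The difference between the responses is called the line difference, on the log2 scale with its standard error. Adjusted p-values are from edgeR's quasi-likelihood test with Benjamini-Hochberg adjustment over these 13509 genes, except where a value is given without a library, which comes from a fit of its own with its own filter and adjustment, and a gene is called where it lies under 0.05. The 12 neural stem cell markers summed to between 7882 and 10910 CPM in the 8 libraries, with Vim the largest. Single markers moved in both directions on BMP4, so the sum does not describe each of them. Nes fell from between 496 and 627 CPM in EGF/FGF to between 119 and 140 CPM in BMP. Slc1a3 rose from between 1058 and 1305 CPM to between 2811 and 3332 CPM, on the scale of the sums.

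The labels of the 2 lines could not be checked by a gene that marks either line. Lines from different mouse strains commonly hold genes whose levels differ strongly in any culture condition, through inherited variants. Here no tested gene separated all 4 BL6 libraries from all 4 ANS4 libraries by more than 1 log2 on the scale of log2(CPM + 0.5), in either direction. By more than 0.5 log2 this held for 0 genes with BL6 above and for 1 with ANS4 above, the interferon-stimulated gene Ifi44, where the gap between the nearest libraries was 0.53 log2. The same measure placed 1226 genes more than 1 log2 higher in all BMP libraries than in all EGF/FGF libraries and 984 more than 1 log2 lower. Of the level differences between the lines called by edgeR's quasi-likelihood test, 149 were called in both conditions with the same direction, and for 0 of them did the difference exceed 1 log2 in both. Whether the libraries labelled ANS4 and BL6 came from 2 lines was not tested, since the counts hold no sequence variants. ANS4 and BL6 stand below for libraries so labelled, and every line difference is a difference between them, which cannot be told apart from one between separate cultures.

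Both lines changed most of their transcriptome on BMP4, and the direction was largely shared. BMP4 changed 10115 genes in BL6 (74.9%) and 9756 in ANS4 (72.2%), of which 4369 rose in both lines and 4337 fell in both. The response itself differed between the lines for 607 genes (4.49%), with 352 responses higher in BL6 (2.61%) and 255 lower (1.89%). Their median size without regard to sign was 0.66 log2, and 118 exceeded 1 log2, 79 upward and 39 downward. At an unadjusted p under 0.05 the line difference held for 2721 genes.

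Most of the 607 genes moved the same way in both lines by different amounts. The change was larger in BL6 for 349 genes, 220 with positive and 129 with negative fold changes in both lines. It was larger in ANS4 for 142 genes, 70 with positive and 72 with negative fold changes. Another 37 genes were called in both lines in opposite directions (0.274% of those tested), and 79 had opposite signs with at most 1 of the lines past the threshold. The count depended on single libraries, since leaving out 1 library took the 607 calls to 182 and 141 (ANS4 EGF/FGF replicates 1 and 2), 202 and 275 (ANS4 BMP) and 146 and 145 (BL6 EGF/FGF), and to 1573 and 811 without BL6 BMP replicate 1 or 2. The BL6 BMP replicates also lay furthest apart, with a Euclidean distance over log2 CPM of 29.9 against at most 25.1 within the other groups. Under library size scaling alone 681 genes were called, 493 higher and 188 lower in BL6, against 352 and 255 with TMM.

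**Figure D1:**
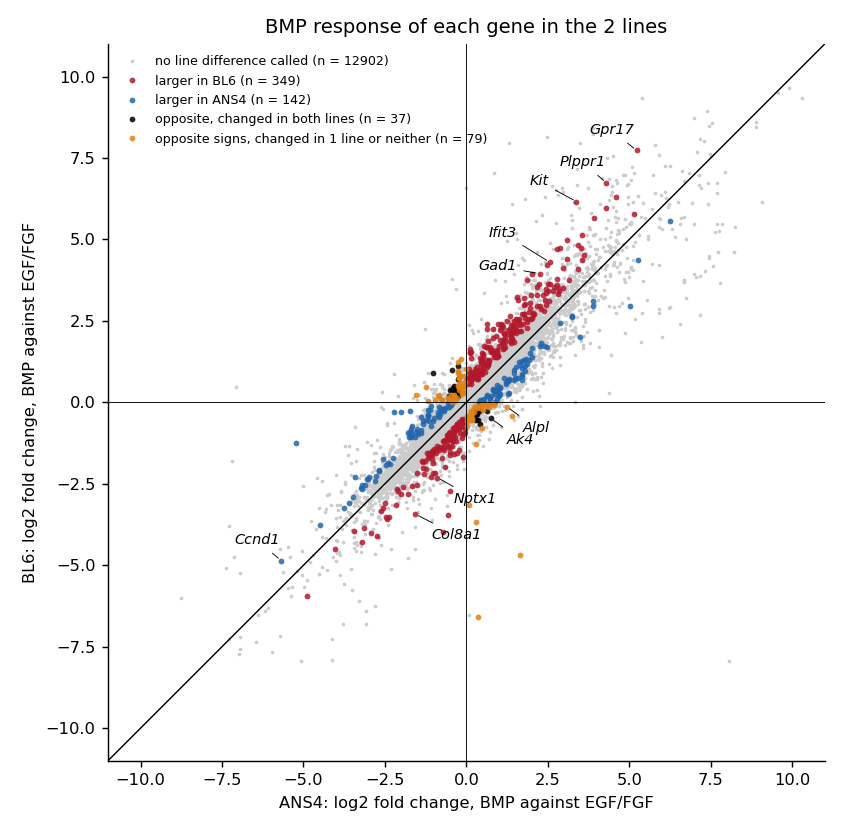
Log2 fold change on BMP4 of each of the 13509 genes in ANS4 (horizontal) and BL6 (vertical), with the diagonal marking equal responses. Red and blue points are the 349 and 142 genes that changed more in BL6 and in ANS4, black points the 37 genes called in opposite directions and orange points the 79 with opposite signs and at most 1 line called; Gpr17 and Kit lie far above the diagonal and Col8a1 and Nptx1 below it.

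The 8 named genes with the largest positive line differences started low in EGF/FGF and rose on BMP4 in both lines. Ifit3 and Ifit3b among them are given with the interferon-stimulated genes. Gpr17 is a receptor of committed oligodendrocyte progenitors. It stood at 3.78 and 4.21 CPM in ANS4 EGF/FGF and 149.7 and 149.5 CPM in ANS4 BMP, and at 1.16 and 1.62 CPM in BL6 EGF/FGF and 285 and 309 CPM in BL6 BMP. BL6 thus began lower and ended higher, and the line difference was 2.51 ± 0.21 log2 (SE, adjusted p = 4e-05). Kit is the stem cell factor receptor. It went from 0.683 and 0.832 to 8.104 and 7.81 CPM in ANS4 and from 0.263 and 0.314 to 20.7 and 21.5 CPM in BL6, a line difference of 2.78 ± 0.41 (adjusted p = 0.0024). Both BL6 BMP libraries exceeded both ANS4 BMP libraries for Gpr17 and for Kit. In EGF/FGF no Kit library exceeded 16 counts in ANS4 or 6 in BL6, so its fold changes rest on few counts. In BMP alone Kit was 1.41 log2 higher in BL6, and its line difference was 1.67 in the lowest of 16 alternative analyses.

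Plppr1 is a phospholipid phosphatase-related membrane protein of growing neurites. It rose from 0.683 and 0.468 to 11.5 and 11.3 CPM in ANS4 and from 0.158 and 0.262 to 23.95 and 22.4 CPM in BL6, with a line difference of 2.45 ± 0.49 (adjusted p = 0.014). In EGF/FGF no Plppr1 library exceeded 13 counts in ANS4 or 5 in BL6, so these folds too rest on few counts. In BMP alone Plppr1 was 1.02 log2 higher in BL6, and its lowest line difference over the 16 alternatives was 1.31. Grik3 is a kainate receptor subunit. It rose from 4.83 and 6.09 to 18.7 and 20.8 CPM in ANS4 and from 3.94 and 3.03 to 47.3 and 47.4 CPM in BL6, a line difference of 1.91 ± 0.21 (adjusted p = 0.00037). For Grik3 both BL6 libraries lay under both ANS4 libraries in EGF/FGF and above them in BMP. Nacad and Atcay, a caytaxin gene expressed in neurons, had line differences of 1.85 ± 0.35 (adjusted p = 0.01) and 1.75 ± 0.41 (adjusted p = 0.028), with 11.2 and 11.2 CPM of Atcay in ANS4 BMP against 24.2 and 27.1 CPM in BL6 BMP. No EGF/FGF library of Nacad or Atcay exceeded 21 counts. The line difference of Gpr17, Kit and Grik3 was called in all 16 alternative analyses, that of Nacad in 14, of Plppr1 in 13 and of Atcay in 9.

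The named genes with a lower BL6 response came from varied families. Nptx1 is a secreted neuronal pentraxin. It fell from 159 and 154 to 83.05 and 86.1 CPM in ANS4 and from 265 and 249.98 to 50.1 and 53.9 CPM in BL6, so that the order of the lines turned over between the conditions. Its line difference was -1.42 ± 0.11 (adjusted p = 2.3e-05). Col8a1 is a short-chain collagen. It fell from 12.4 and 10.3 to 3.297 and 4.35 CPM in ANS4 and from 19.9 and 21.1 to 2.13 and 1.67 CPM in BL6 (line difference -1.86 ± 0.26, adjusted p = 0.0017), and it too was higher in BL6 in EGF/FGF and lower in BMP. Nefm is the medium neurofilament chain. It was higher in BL6 in EGF/FGF, at 10.6 and 11.3 CPM in ANS4 and 28.1 and 23.7 CPM in BL6. In BMP its libraries overlapped, at 6.37 and 7.59 CPM in ANS4 and 6.07 and 7.04 CPM in BL6 (line difference -1.34 ± 0.20, adjusted p = 0.0025).

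Alpl is tissue-nonspecific alkaline phosphatase. It rose in ANS4 alone by its own tests. ANS4 held 13.2 and 11.8 CPM in EGF/FGF and 29.4 and 29.7 CPM in BMP (log2 1.24, adjusted p = 9.4e-08), while BL6 held 14.6 and 12.8 CPM in EGF/FGF and 12.3 and 12.6 CPM in BMP (log2 -0.13, adjusted p = 0.31). The line difference was -1.37 ± 0.16 (adjusted p = 0.00043). Slc27a6 is a fatty acid transporter. It fell in both lines and further in BL6, to 1.04 and 0.521 CPM against 2.79 and 1.897 CPM in ANS4 (line difference -1.37 ± 0.35, adjusted p = 0.041), and was called in 8 of 16 alternatives. The calls of Nptx1, Col8a1, Nefm and Alpl held in all 16.

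The 3 largest negative values are the least certain. Brms1 (chromosome 19, 5041363 to 5049912, GRCm38.p6), a subunit of a Sin3 histone deacetylase complex, held 16.2 and 0.335 CPM in the ANS4 BMP replicates and 7.52 and 15.4 CPM in the BL6 EGF/FGF replicates, and its line difference of -6.32 ± 1.44 (adjusted p = 0.025) was -1.72 without ANS4 BMP replicate 1 (adjusted p = 0.67) and -12.39 without BL6 BMP replicate 1. Gm4724 and Gm14308 lie on chromosome 2 (175418037 to 175704126 and 176619933 to 176636423), beside zinc finger genes of similar sequence between which reads can be split. Gm4724 had 1.66 and 0 CPM and Gm14308 6.896 and 1.77 CPM in the BL6 BMP replicates, and their line differences were -2.90 ± 0.68 (adjusted p = 0.028) and -2.23 ± 0.47 (adjusted p = 0.018). Without BL6 BMP replicate 1 they were -9.87 and -3.52, and without replicate 2 -1.91 and -1.56.

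Among the 8 named genes called in opposite directions, no response exceeded 1 log2 in either line, and the largest was that of Mgat5b in BL6 (0.997). Ak4 is a mitochondrial adenylate kinase. It rose in ANS4 from 24.1 and 23.4 to 39.5 and 40.3 CPM (log2 0.75, adjusted p = 3e-06) and fell in BL6 from 27.7 and 28.9 to 20.6 and 19.8 CPM (log2 -0.49, adjusted p = 0.00024). The line difference was -1.24 ± 0.13 (adjusted p = 0.00037), and the BMP libraries of the lines did not overlap. Basp1 is a membrane protein of growth cones. It went the other way, from 62.6 and 62.1 to 45.5 and 42.6 CPM in ANS4 and from 66.5 and 60.7 to 80.6 and 84.7 CPM in BL6 (line difference 0.88 ± 0.12, adjusted p = 0.0011). Mgat5b is a brain N-acetylglucosaminyltransferase. It also fell in ANS4, from 8.296 and 10.1 to 6.32 and 7.25 CPM, and rose in BL6, from 6.995 and 7.69 to 12.4 and 16.9 CPM (line difference 1.44 ± 0.24, adjusted p = 0.0045).

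Of the other opposite genes, Col11a1, a fibrillar collagen chain, Bbc3, which encodes the BH3-only protein PUMA, and Snx22, a sorting nexin, fell in ANS4 and rose in BL6, with line differences of 0.84, 0.89 and 0.83 (adjusted p = 0.015, 0.04 and 0.047). The line difference of Bbc3 was 0.59 without BL6 BMP replicate 2 (adjusted p = 0.082). Zfp967 and Mns1, a gene of motile cilia and sperm flagella, rose in ANS4 and fell in BL6, with line differences of -1.07 and -0.91 (adjusted p = 0.017 and 0.025). Zfp967 (chromosome 2, 176521004 to 176533821) lies in the same zinc finger cluster as Gm14308. Ak4, Basp1 and Mgat5b were called in all 16 alternatives, while the others were called in 8 to 12. The count of opposite genes ran from 8, without BL6 EGF/FGF replicate 2, to 85, without BL6 BMP replicate 1.

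**Figure D2:**
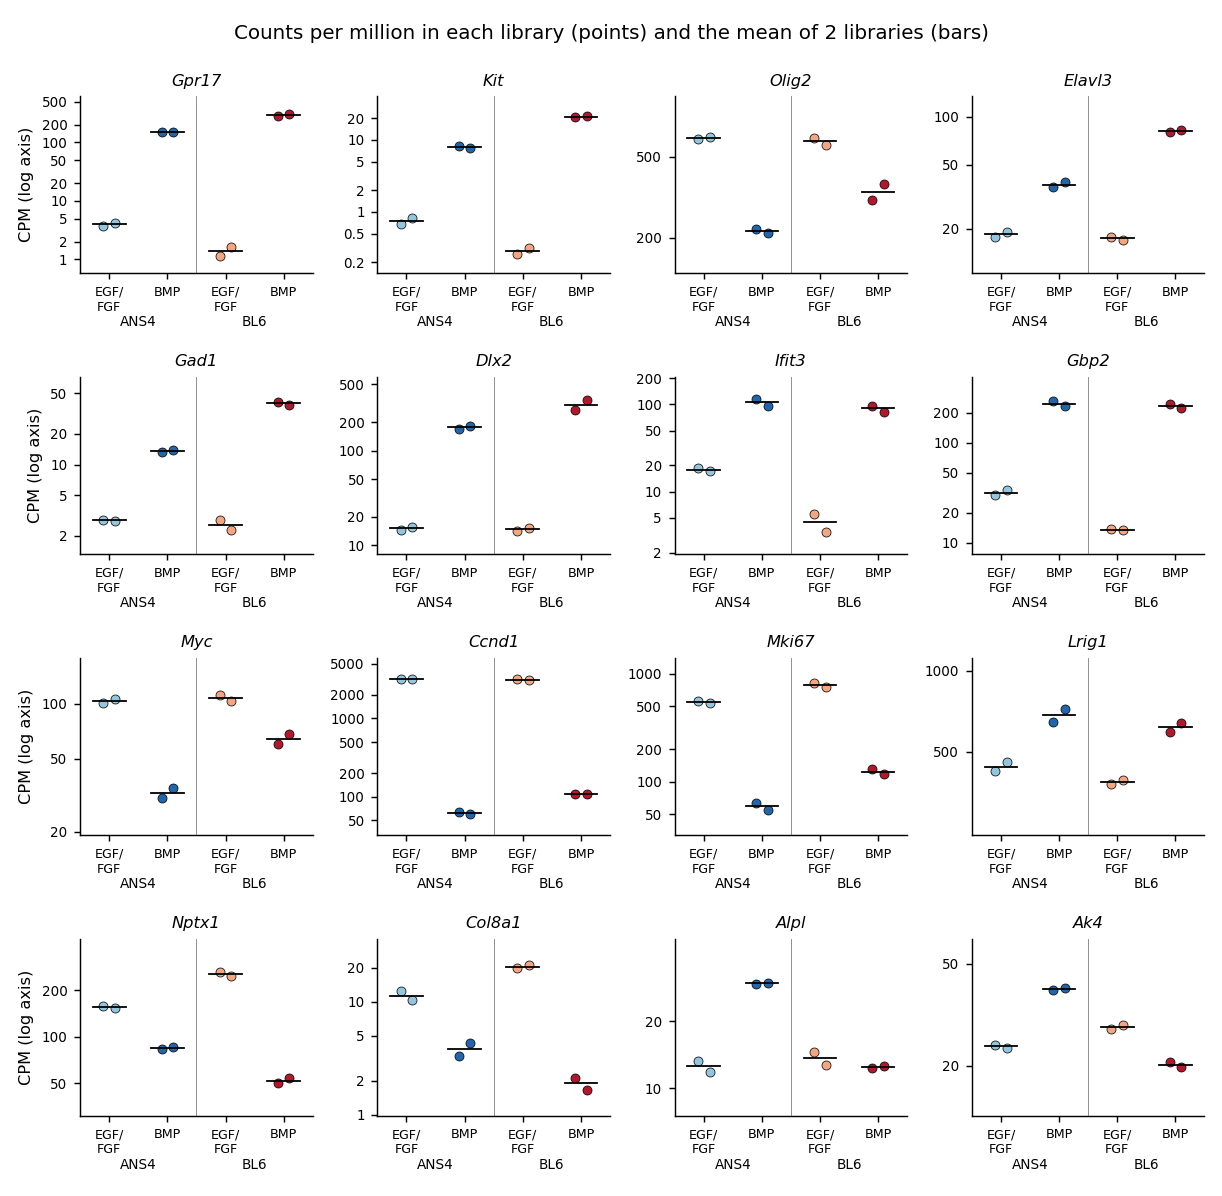
CPM on a log axis in each of the 8 libraries for 16 genes, with points for libraries and bars for the mean of the 2 replicates. Gpr17, Kit, Elavl3 and Gad1 are level with or under ANS4 in EGF/FGF and above it in BMP for BL6, Ccnd1 and Mki67 fall in both lines and end higher in BL6, Lrig1 rises in both, and Alpl and Ak4 rise in ANS4 only.

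Of the genes the study follows in quiescence, Lrig1, a membrane inhibitor of receptor tyrosine kinases, rose in both lines, from 426 and 457 to 647 and 718 CPM in ANS4 (log2 0.63) and from 382 and 392 to 594 and 640.4 CPM in BL6 (log2 0.67), and its line difference of 0.04 ± 0.11 was not called (adjusted p = 0.87). Egfr is the EGF receptor. It fell in both lines, and its line difference of -0.28 ± 0.10 missed the threshold (adjusted p = 0.12), although its level in BMP was lower in BL6, at 174 and 164 against 211 and 220.3 CPM (log2 -0.35, adjusted p = 0.0038). Cd9, Cdkn1b (p27), Id1, Prom1 and Sox2 were not called either, with line differences of 0.16 ± 0.11, 0.15 ± 0.11, -0.30 ± 0.16, 0.18 ± 0.13 and 0.05 ± 0.11 and adjusted p from 0.32 (Id1) to 0.85 (Sox2).

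Gfap is the astrocyte intermediate filament. It rose more in BL6. It went from 157 and 134 to 938 and 896 CPM in ANS4 and from 93.1 and 104 to 998 and 1108 CPM in BL6, a line difference of 0.76 ± 0.13 (adjusted p = 0.0046), and BL6 started lower. Fabp7 is a brain fatty acid binding protein of radial glia and NSCs. It fell further in BL6, from 2529 and 2212 to 403 and 277 CPM against 2391 and 2613 to 674 and 562 CPM in ANS4 (line difference -0.78 ± 0.19, adjusted p = 0.032). The call of Gfap held in all 16 alternatives and that of Fabp7 in 8.

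To read functions, the line difference was set out over 22 gene lists. Of their 640 tested members, 92 were called, 64 higher and 28 lower in BL6, and each list is described by its counts and median beside those over all genes tested, where 2.61% were called higher and 1.89% lower and the median line difference was -0.0024.

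Genes of the BMP pathway itself were called in both directions. Of 32 members, 2 were called higher and 2 lower in BL6, with a median line difference of -0.01. The ligands, Smad1, Smad4, Smad5 and Smad9 were not called, and the type I receptor Bmpr1a rose from 296 and 279 to 595 and 558 CPM in ANS4 and from 259.6 and 264 to 467 and 423 CPM in BL6 (line difference -0.24 ± 0.11, adjusted p = 0.22). Among targets, Id2, an inhibitor of bHLH factors, rose from 44.2 and 45.1 to 216 and 223 CPM in ANS4 and from 48.1 and 51.4 to 188 and 168 CPM in BL6, a smaller rise in BL6 (line difference -0.46 ± 0.11, adjusted p = 0.033). Id1 pointed the same way without passing, whereas Id3 and Id4 had line differences of 0.05 ± 0.21 and 0.26 ± 0.30. Hes1 is a bHLH repressor shared with Notch signalling. It fell further in BL6, to 11.7 and 15.7 CPM against 23.1 and 25.9 CPM in ANS4 (line difference -0.85 ± 0.17, adjusted p = 0.012).

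The other called members of the BMP list rose more in BL6. Nbl1 is a secreted BMP antagonist. It rose from 95.6 and 95.3 to 253 and 259 CPM in ANS4 and from 72.6 and 77.9 to 306 and 369.9 CPM in BL6 (line difference 0.74 ± 0.12, adjusted p = 0.0048). Acvr2b is a type II receptor. It rose from 11.6 and 10.4 to 26.2 and 23.7 CPM and from 9.78 and 10.4 to 38.9 and 40.6 CPM (line difference 0.79 ± 0.16, adjusted p = 0.013). Nbl1 was the only one of these 4 called in all 16 alternatives.

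Of 30 FGF and EGF signalling genes 16 fell and 11 rose in each line, and 3 were called higher and 1 lower in BL6, with a median line difference of 0.14. Etv5 and Etv4 are ETS factors induced by FGF signalling. Etv5 fell from 483 and 497 to 52.2 and 54.8 CPM in ANS4 and from 497 and 475 to 77.9 and 88.1 CPM in BL6 (line difference 0.65 ± 0.11, adjusted p = 0.0053), and Etv4 had a line difference of 0.72 ± 0.18 (adjusted p = 0.036), so that both ended higher in BL6. The feedback inhibitors Spry1, Spry2, Spry4 and Dusp6 fell in both lines and were not called, with line differences of 0.52 ± 0.17, 0.08 ± 0.10, 0.15 ± 0.14 and 0.12 ± 0.13. Tgfa is an EGF receptor ligand. It rose to 19.7 and 22.8 CPM in BL6 BMP against 11.1 and 11.4 CPM in ANS4 BMP (line difference 1.41 ± 0.34, adjusted p = 0.031), a value of 0.80 without ANS4 EGF/FGF replicate 2 (adjusted p = 0.29). Fgf1 did the reverse, with 90.1 and 82.5 CPM in ANS4 BMP and 46.9 and 44.1 CPM in BL6 BMP, from 28.9 and 23.3 CPM in ANS4 EGF/FGF and 30.1 and 25.9 CPM in BL6 EGF/FGF (line difference -1.03 ± 0.16, adjusted p = 0.0025).

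Wnt genes were called in 1 direction, 0 higher and 6 lower of 27 (3 and 8 at an unadjusted p under 0.05, 0 and 5 by DESeq2 and 0 and 3 by limma). The median line difference was -0.12, and 5 of the 6 were ligands or receptors. Frizzled receptor Fzd7 rose from 65.2 and 66.7 to 153 and 153 CPM in ANS4 and from 62.3 and 65.1 to 97.7 and 90.98 CPM in BL6 (line difference -0.65 ± 0.11, adjusted p = 0.0039). Fzd5 rose only in ANS4, from 29.5 and 31.8 to 45.99 and 48.3 CPM, with 38.4 and 34.7 CPM in BL6 EGF/FGF and 32.8 and 34.99 CPM in BL6 BMP (line difference -0.73 ± 0.13, adjusted p = 0.007). Fzd1, the noncanonical ligand Wnt5a, Wnt7b and the transcription factor Tcf7 followed with line differences of -0.48, -0.43, -0.40 and -0.89 (adjusted p from 0.021 to 0.044). The Wnt target Axin2 was not called, at 0.25 ± 0.13 (adjusted p = 0.3). In the Notch list 1 of 17 members was called in each direction. Dll3 is a ligand-like inhibitor of the pathway. It rose more in BL6 (0.84 ± 0.18, adjusted p = 0.018), and the receptor Notch3 fell further in BL6, to 41.5 and 45.2 CPM against 75.5 and 79.6 CPM in ANS4 (-0.72 ± 0.11, adjusted p = 0.0029).

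Immediate early genes and the Myc network were called higher in BL6 for 8 of 24 members and lower for 0 (13 and 2 at an unadjusted p under 0.05, 8 and 0 by DESeq2 and 8 and 0 by limma). Over the members the median line difference was 0.45. Myc is a growth-promoting transcription factor. It fell from 100.5 and 106 to 30.8 and 34.7 CPM in ANS4 and from 111 and 104 to 60.1 and 68.8 CPM in BL6 (line difference 0.92 ± 0.13, adjusted p = 0.0017). Jun is a subunit of AP-1. It also fell less in BL6, from 184 and 197 to 54.2 and 61.3 CPM in ANS4 and from 194 and 182 to 98.7 and 102 CPM in BL6 (0.81 ± 0.11, adjusted p = 0.0017). For both genes the libraries of the lines overlapped in EGF/FGF, and in BMP both BL6 libraries lay above both ANS4 libraries.

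Other AP-1 and Myc family members rose, and more so in BL6. Fos rose from 63.2 and 67.7 to 234 and 224 CPM in ANS4 and from 44.7 and 42.1 to 251 and 274 CPM in BL6 (0.79 ± 0.11, adjusted p = 0.0018), Junb from 56.5 and 59.2 to 147 and 163 CPM and from 46.2 and 44.8 to 191 and 228 CPM (0.78 ± 0.13, adjusted p = 0.0049). Mycl is a Myc paralogue. It rose from 16.5 and 18.6 to 41.1 and 44.1 CPM in ANS4 and from 13.4 and 11.4 to 58.4 and 57.7 CPM in BL6 (0.95 ± 0.15, adjusted p = 0.0029). Mxi1, a Myc antagonist, Ier2 and the nuclear receptor Nr4a1 were also higher (0.52, 0.87 and 0.91, adjusted p = 0.014, 0.022 and 0.034). Egr1 is an early growth response factor. It fell in both lines and was not called, at 0.15 ± 0.13 (adjusted p = 0.58). The calls of Myc, Jun, Fos, Junb and Mycl held in all 16 alternatives.

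All 44 DNA replication genes fell in both lines, with median log2 changes of -2.16 in ANS4 and -2.10 in BL6. For the line difference 0 were called in either direction (5 and 1 at an unadjusted p under 0.05, 0 and 0 by DESeq2 and 0 and 0 by limma), and the median was 0.04. The 46 mitotic genes fell in both lines too, with medians of -2.72 in ANS4 and -2.39 in BL6. Here 5 were called higher in BL6 and 0 lower (25 and 0 at an unadjusted p under 0.05, 7 and 0 by DESeq2 and 2 and 0 by limma), 43 of 46 had a positive sign, and the median line difference was 0.30. Mki67 is the Ki67 antigen of dividing cells. It fell from 553 and 537 to 63.99 and 55.1 CPM in ANS4 and from 813 and 751 to 129.9 and 118 CPM in BL6 (0.54 ± 0.12, adjusted p = 0.023). BL6 held more Mki67 in both conditions, and the gap widened from 0.52 log2 in EGF/FGF to 1.06 log2 in BMP.

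Cdc20 is the mitotic activator of the anaphase-promoting complex. It fell from 123 and 129 to 14.1 and 16.6 CPM in ANS4 and from 139 and 142 to 25.9 and 29.2 CPM in BL6 (0.68 ± 0.13, adjusted p = 0.012). Ube2c is the ubiquitin-conjugating enzyme of the same complex. It went from 85.8 and 95.9 to 13.8 and 17.3 CPM and from 93.5 and 88.1 to 23.2 and 31.5 CPM (0.82 ± 0.19, adjusted p = 0.024). Kif2c, a microtubule-depolymerising kinesin, and cyclin A2 (Ccna2) completed the called members (0.53 ± 0.14 and 0.39 ± 0.10, adjusted p = 0.042 and 0.047). These mitotic calls held in 7 to 12 of 16 alternatives. The mitotic kinase Cdk1 had a line difference of 0.06 ± 0.13 (adjusted p = 0.84).

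Promoters of many mitotic genes hold the cell cycle genes homology region (CHR), the element read by the DREAM and MuvB complexes. In windows of 300 bases around RefSeq gene starts (GRCm38.p6, 250 bases before to 50 after), the letters TTTGAA on either strand were found for 29 of the 38 mitotic members with a window and in 17.9% of all 32851 windows (20.2% of 27025 genes). All 4 called members with a window held a match, whereas 9 of the 38 members with a window held none. The stretches of these 4 are shown because they belong to the called mitotic genes, with the match in capitals, 5′ to 3′ on the gene's strand.
Cdc20: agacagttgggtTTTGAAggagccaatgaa
Kif2c: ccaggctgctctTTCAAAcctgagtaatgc
Mki67: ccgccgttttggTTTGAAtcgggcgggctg
Ube2c: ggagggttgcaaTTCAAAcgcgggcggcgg
They lie at chr4:118437344-118437373 (minus strand), chr4:117178858-117178887 (minus), chr7:135716460-135716489 (minus) and chr2:164769888-164769917 (plus). The match ends 12, 97, 92 and 23 bases before the transcript start of the window. For Mki67 that transcript start lies inside the annotated gene (chr7:135689784-135716450), whose own start is nearer to the match. A match is a description of the sequence and not evidence of binding.

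Regulators of the G1 phase were called higher in BL6 for 3 of 16 members and lower for 0 (7 and 0 at an unadjusted p under 0.05, 2 and 0 by DESeq2 and 3 and 0 by limma). The median line difference was 0.20. Ccnd1 is cyclin D1. It fell from 3172 and 3205 to 64.2 and 59.9 CPM in ANS4 and from 3158 and 3080.1 to 107 and 108 CPM in BL6 (0.83 ± 0.09, adjusted p = 0.00043), with both BL6 libraries just under ANS4 in EGF/FGF and above it in BMP. Ccnd2 is cyclin D2. It fell only in ANS4, from 759 and 721 to 556 and 546 CPM, and was at 775 and 754 CPM in BL6 EGF/FGF and 756 and 767 CPM in BL6 BMP (0.42 ± 0.09, adjusted p = 0.022). Cdkn2a, which encodes the p16 and ARF inhibitors, was low, at 3.21 and 3.23 CPM in BL6 BMP and 1.62 and 1.62 CPM in ANS4 BMP (1.48 ± 0.37, adjusted p = 0.036), and held its call in 6 of 16 alternatives. The inhibitors Cdkn1a (p21) and Cdkn1b and the pocket proteins Rb1, Rbl1 and Rbl2 were not called.

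Interneuron fate and neuroblast genes were called higher in BL6 for 10 of 27 members and lower for 0 (18 and 0 at an unadjusted p under 0.05, 12 and 0 by DESeq2 and 12 and 0 by limma). Over the members the median line difference was 0.59. That median was 0.67 when Dlx5, at 0 counts in both ANS4 EGF/FGF libraries, was set to 3 counts there. Elavl3 is a neuronal RNA-binding protein. It rose from 17.7 and 19.1 to 36.5 and 38.9 CPM in ANS4 and from 17.8 and 17.1 to 79.9 and 82.7 CPM in BL6 (1.19 ± 0.13, adjusted p = 0.00037). Gad1 is the enzyme that makes GABA. It rose from 2.89 and 2.81 to 13.4 and 13.8 CPM in ANS4 and from 2.84 and 2.302 to 41.5 and 38.2 CPM in BL6 (1.70 ± 0.22, adjusted p = 0.00094). In EGF/FGF the libraries of the lines overlapped for both genes, and in BMP every BL6 library was above every ANS4 library.

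Among fate factors, Dlx2, a homeobox factor of GABAergic interneurons, rose from 14.5 and 15.7 to 169 and 184 CPM in ANS4 and from 14.3 and 15.2 to 265 and 339 CPM in BL6 (0.81 ± 0.17, adjusted p = 0.016). Prox1 rose in BL6 alone, from 53.8 and 56.6 to 92.2 and 78.9 CPM, with 58.6 and 57.3 CPM in ANS4 EGF/FGF and 56.1 and 56.6 CPM in ANS4 BMP (0.67 ± 0.12, adjusted p = 0.0081). Stmn1 is a tubulin-binding protein of young neurons and dividing cells. It fell from 423 and 399.7 to 263 and 226 CPM in ANS4 and less in BL6, from 475 and 419.7 to 389 and 385 CPM (0.54 ± 0.12, adjusted p = 0.023). Tubb3, Elavl4, Sox4, Sox11 and Dlx1 were called with line differences of 0.68, 0.90, 0.44, 0.39 and 0.59 (adjusted p from 0.027 to 0.049).

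The migration gene Dcx did not pass for the response although its BMP level separated the lines. Dcx encodes doublecortin, a microtubule protein of migrating neuroblasts. It was at 176 and 171 CPM in ANS4 BMP and 397 and 379 CPM in BL6 BMP, from 1.16 and 1.25 CPM and 0.631 and 2.197 CPM in EGF/FGF, and its line difference was 0.92 ± 0.42 (adjusted p = 0.23) while its level in BMP was 1.16 log2 higher in BL6 (adjusted p = 3.7e-05). Dlx5 reached 8.49 and 8.201 CPM in ANS4 BMP and 21.9 and 20.6 CPM in BL6 BMP from 0 and 0 CPM in ANS4 EGF/FGF and 0 and 0.0523 CPM in BL6 EGF/FGF, all under 3 counts, so that no fold is given for it. In these bulk libraries a larger share of cells of a type and more RNA per cell cannot be told apart.

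The oligodendrocyte lineage list held 7 members called higher in BL6 and 1 lower of 19 (median line difference 0.69), and 6 of the 7 were progenitor genes, of which 9 were tested. Pdgfra is the growth factor receptor of oligodendrocyte progenitors. It rose from 33.8 and 30.5 to 53.2 and 52.8 CPM in ANS4 and from 30.03 and 28.1 to 98.8 and 88.9 CPM in BL6 (0.97 ± 0.13, adjusted p = 0.0011). Lhfpl3 rose from 15.96 and 15.03 to 91.2 and 84.7 CPM and from 10.6 and 11.3 to 138 and 137 CPM (1.14 ± 0.13, adjusted p = 0.00039). Cspg4 is the NG2 proteoglycan. It fell in ANS4, from 41.5 and 46.7 to 20.6 and 21.03 CPM, and was at 33.2 and 34.99 CPM in BL6 EGF/FGF and 29.4 and 33.5 CPM in BL6 BMP (0.97 ± 0.14, adjusted p = 0.0024).

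The lineage factors Olig2 and Olig1 fell in both lines and less in BL6. Olig2 went from 608 and 624 to 220.3 and 212 CPM in ANS4 and from 615 and 571 to 306 and 365 CPM in BL6 (0.69 ± 0.12, adjusted p = 0.0053), and Olig1 had a line difference of 0.67 ± 0.13 (adjusted p = 0.011). Of 10 tested myelin genes, Bcas1 was higher (1.02 ± 0.20, adjusted p = 0.011) and Mobp lower, falling to 5.81 and 5.21 CPM in BL6 and 8.55 and 8.54 CPM in ANS4 (-1.12 ± 0.20, adjusted p = 0.0068).

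Of 39 astrocyte and quiescent stem cell genes 33 rose in each line, with 3 members called higher and 3 lower in BL6 and a median line difference of -0.03. Beside Gfap, Apoe, the main brain apolipoprotein, and the chaperone Clu rose more in BL6. Apoe went from 1142 and 1167 to 3935 and 3772 CPM in ANS4 and from 576 and 529.9 to 2782 and 3057 CPM in BL6 (0.66 ± 0.10, adjusted p = 0.0025), so that BL6 was lower in both conditions and closed part of the gap. Gja1 is connexin 43. It rose less in BL6, from 229.6 and 252 to 811 and 756 CPM against 225 and 214 to 1238 and 1177 CPM in ANS4 (-0.76 ± 0.11, adjusted p = 0.0016). The matricellular genes Sparcl1 and Sparc were also lower (-0.69 ± 0.16 and -0.44 ± 0.10, adjusted p = 0.024 and 0.024). Aqp4, Slc1a2 and Slc1a3, the water channel and glutamate transporters of astrocytes, were not called (0.08 ± 0.12, -0.09 ± 0.11 and -0.03 ± 0.10).

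Interferon-stimulated genes, an antiviral programme, had a higher BL6 response for 9 of 51 members and a lower one for 0 (22 and 1 at an unadjusted p under 0.05, 8 and 0 by DESeq2 and 5 and 0 by limma). The median of the list was 0.25. In all 9 the BL6 level in EGF/FGF was lower. Gbp2 is a guanylate-binding protein. It rose from 30.03 and 33.5 to 262 and 234 CPM in ANS4 and from 13.6 and 13.3 to 243 and 226 CPM in BL6 (1.16 ± 0.13, adjusted p = 0.00039). Ifit3 rose from 18.5 and 17.3 to 114 and 96.01 CPM in ANS4 and from 5.63 and 3.45 to 96.9 and 82.7 CPM in BL6 (1.75 ± 0.22, adjusted p = 0.00076). The BMP libraries of the lines overlapped for both genes, and in EGF/FGF both BL6 libraries lay under both ANS4 libraries.

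Ifit3b (chromosome 19, 34607530 to 34613403), a near-identical neighbour of Ifit3 (34583119 to 34588982), had a line difference of 1.93 ± 0.24 (adjusted p = 0.0006), and the share of reads between the copies is uncertain. Ifit1, which binds foreign RNA caps, rose from 10.5 and 8.84 to 20.5 and 19.7 CPM in ANS4 and from 2.79 and 3.14 to 15.9 and 15.7 CPM in BL6 (1.36 ± 0.19, adjusted p = 0.0018). Oasl2 rose from 13.7 and 13.8 to 37.3 and 38.2 CPM and from 4.52 and 5.07 to 22.4 and 22.2 CPM (0.75 ± 0.16, adjusted p = 0.017) and stayed lower in BL6. The RNA sensor Ddx58 (RIG-I), the feedback protease Usp18, the transcription factor Irf9 and Rtp4 had line differences of 0.51, 1.06, 0.52 and 0.94 (adjusted p = 0.027, 0.03, 0.038 and 0.047). Isg15 and Irf7 were not called (0.66 ± 0.37 and 0.89 ± 0.26, adjusted p = 0.34 and 0.068).

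In EGF/FGF 25 of 51 members had a lower level in BL6 (1.75% of all genes tested), with a median of -0.62 log2. In BMP 20 were lower (8.45% of all genes) and 1 higher (8.76%), with a median of -0.32 log2. The interferon-stimulated response element (ISRE), a motif of promoters that answer interferon, was searched for as GAAA, 2 bases of any kind and GAAA on both strands of the same promoter windows. It was found for 18 of the 40 members with a window and in 3.44% of all windows (3.99% of genes). Of the 7 called members with a window, 5 held it, and the stretches of the 4 whose match lies before the transcript start of the window are shown because these genes have the largest called line differences of the list.
Gbp2: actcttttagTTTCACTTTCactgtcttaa
Ifit1: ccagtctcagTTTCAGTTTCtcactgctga
Ifit3: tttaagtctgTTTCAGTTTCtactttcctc
Ifit3b: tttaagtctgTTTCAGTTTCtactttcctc
The capitals mark the match, which is on the strand opposite to the gene in each. They lie at chr3:142620594-142620623, chr19:34640794-34640823, chr19:34583397-34583426 and chr19:34607793-34607822 (GRCm38.p6, all plus strand), and the stretches of Ifit3 and Ifit3b are the same. The windows of Ifit3 and Ifit3b belong to a transcript start inside the annotated gene, so that both stretches lie within the gene spans given above.

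MHC class I presentation had 1 of 19 members called, H2-T23, the nonclassical Qa-1 chain, higher in BL6 (1.35 ± 0.35, adjusted p = 0.041), and 0 lower (2 and 1 at an unadjusted p under 0.05, 0 and 0 by DESeq2 and 1 and 0 by limma). The median line difference was -0.01. The classical chains H2-K1 and H2-D1 and the light chain B2m were not called (-0.06 ± 0.18, 0.28 ± 0.12 and 0.14 ± 0.10). Class I genes are near copies of each other, and the split of reads between them is uncertain. Complement, chemokine and reactive glia genes had 3 of 17 called higher and 0 lower (6 and 3 at an unadjusted p under 0.05, 4 and 0 by DESeq2 and 3 and 0 by limma). Over the members the median was 0.08. Osmr is the oncostatin M receptor. It rose from 6.67 and 7.02 to 48.8 and 46.2 CPM in ANS4 and from 4.26 and 4.86 to 55.8 and 54.9 CPM in BL6 (0.80 ± 0.16, adjusted p = 0.015), and the chemokines Cxcl1 and Cxcl10 had line differences of 1.49 ± 0.33 and 0.77 ± 0.17 (adjusted p = 0.021 and 0.021). Complement C3 rose by 8.88 log2 in ANS4 and 8.46 log2 in BL6 and was not called (adjusted p = 0.67).

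Among p53 targets, 6 of 22 were called higher and 0 lower (10 and 0 at an unadjusted p under 0.05, 6 and 0 by DESeq2 and 3 and 0 by limma). The median of these targets was 0.26. Gadd45b is a stress sensor. It rose from 9.56 and 9.99 to 16.4 and 18.4 CPM in ANS4 and from 5.89 and 6.43 to 28.8 and 29.7 CPM in BL6 (1.41 ± 0.17, adjusted p = 0.00047), and the order of the lines turned over. Gadd45a rose in BL6, from 25.4 and 26.4 to 49.8 and 40.9 CPM, and was at 30.4 and 26.8 CPM in ANS4 EGF/FGF and 32.1 and 30.2 CPM in ANS4 BMP (0.69 ± 0.16, adjusted p = 0.024). Plk2, Bax and the death receptor Fas were called with Bbc3, at 0.51, 0.45 and 0.67 (adjusted p = 0.026, 0.042 and 0.045). The canonical targets Cdkn1a and Mdm2 were not, at 0.19 ± 0.14 and 0.30 ± 0.11 (adjusted p = 0.47 and 0.14).

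The called members of the metabolic lists all had a lower BL6 response. Of 31 sterol synthesis and uptake genes 28 fell in each line. For the line difference 0 were called higher and 4 lower (0 and 14 at an unadjusted p under 0.05, 0 and 8 by DESeq2 and 0 and 3 by limma), with 27 negative signs and a median of -0.26 (-0.22 with members at 0 counts in a group set to 3 counts). Idi1 is an isomerase early in the isoprenoid pathway. It fell from 788 and 778 to 193 and 177 CPM in ANS4 and from 662 and 705 to 106 and 102 CPM in BL6 (-0.63 ± 0.10, adjusted p = 0.0038). Nsdhl and Tm7sf2, late enzymes of cholesterol synthesis, had line differences of -0.48 ± 0.11 and -0.64 ± 0.15 (adjusted p = 0.023 and 0.03). Scd1 is the stearoyl-CoA desaturase. It rose in ANS4, from 1589.6 and 1504 to 2215 and 2113 CPM, and was at 1222 and 1256 CPM in BL6 EGF/FGF and 1164 and 1354 CPM in BL6 BMP (-0.46 ± 0.11, adjusted p = 0.028).

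Glycolysis had 0 of 23 members called higher and 4 lower (0 and 12 at an unadjusted p under 0.05, 0 and 5 by DESeq2 and 0 and 2 by limma). The median was -0.24. Tpi1 fell from 327 and 339 to 233 and 242 CPM in ANS4 and from 342 and 347 to 183 and 182 CPM in BL6 (-0.43 ± 0.10, adjusted p = 0.024), and Pgk1 and Eno1 were also lower (-0.51 ± 0.13 and -0.45 ± 0.12, adjusted p = 0.034 and 0.044). The lactate transporter Slc16a1 rose in both lines and less in BL6, to 459.9 and 438 CPM against 595 and 600.01 CPM in ANS4 (-0.42 ± 0.10, adjusted p = 0.026). Of 30 oxidative phosphorylation subunits 0 were called (0 and 5 at an unadjusted p under 0.05, 0 and 0 by DESeq2 and 0 and 0 by limma), with 27 negative signs and a median of -0.12. Fatty acid oxidation had 0 called higher and 1 lower of 21 (2 and 2 at an unadjusted p under 0.05, 0 and 1 by DESeq2 and 0 and 0 by limma), Hadh (-0.41 ± 0.11, adjusted p = 0.043), and a median of -0.08. Of 24 lysosomal genes 0 were called (3 and 1 at an unadjusted p under 0.05, 1 and 0 by DESeq2 and 0 and 0 by limma). Their median was 0.11. Of 30 ribosome biogenesis genes 0 were called (1 and 2 at an unadjusted p under 0.05, 0 and 0 by DESeq2 and 0 and 0 by limma). Their median was -0.06.

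Collagens and matrix genes were called in both directions, 3 higher and 5 lower of 52, with a median of -0.10. Col5a1 fell from 74.6 and 82.4 to 48.1 and 49.04 CPM in ANS4 and from 99.5 and 101 to 36.4 and 36.9 CPM in BL6 (-0.76 ± 0.11, adjusted p = 0.0024), and Col6a1 from 22 and 21.95 to 16.2 and 16.1 CPM and from 26.98 and 24.01 to 9.7995 and 10.5 CPM (-0.88 ± 0.15, adjusted p = 0.0055). For both collagens the BL6 libraries lay above those of ANS4 in EGF/FGF and under them in BMP. Spp1 is osteopontin. It fell from 79.1 and 70.2 to 2.68 and 2.34 CPM in ANS4 and from 115 and 118 to 2.02 and 1.77 CPM in BL6 (-1.04 ± 0.23, adjusted p = 0.02). The proteoglycan-cleaving proteases Adamts5 and Adamts4 were higher, like Col11a1 (1.56 ± 0.34 and 0.58 ± 0.14, adjusted p = 0.021 and 0.028), and Col18a1 and Col4a1 were lower (-0.44 ± 0.11 and -0.40 ± 0.10, adjusted p = 0.038 and 0.043).

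The lines lay closer together before BMP4 than after it. In EGF/FGF 395 genes (2.92%) differed in level between BL6 and ANS4, 158 higher and 237 lower in BL6, and in BMP 2325 genes did (17.2%), 1184 higher and 1141 lower. Euclidean distances between libraries of the different lines were 29.1 to 31.3 in EGF/FGF and 37.0 to 41.3 in BMP, whereas the conditions lay 124.8 to 136.0 apart within a line. Of the 607 genes with a line difference in response, 445 differed in level only in BMP, 76 only in EGF/FGF, 41 in both and 45 in neither, and the level difference was larger in BMP for 456. The counts moved from 40 to 1068 in EGF/FGF and from 958 to 2865 in BMP when 1 library was left out (lowest without BL6 EGF/FGF replicate 1 and ANS4 BMP replicate 2, highest without BL6 BMP replicates 2 and 1), and BMP had more calls in every one of these fits.

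The level differences were also counted by list. Over all genes tested, 1.17% were higher and 1.75% lower in BL6 in EGF/FGF, and 8.76% higher and 8.45% lower in BMP. Mitotic genes were higher in BL6 for 9 of 46 members in EGF/FGF and for 40 in BMP. Interneuron and neuroblast genes were higher for 1 of 27 in EGF/FGF and 20 in BMP, and oligodendrocyte lineage genes for 11 of 19 in BMP. Sterol synthesis genes were lower in BL6 for 13 of 31 in EGF/FGF and 27 in BMP, and astrocyte and quiescent stem cell genes for 12 of 39 and 19. In BMP, lower levels were also called for 20 of 51 interferon-stimulated, 10 of 19 MHC class I, 8 of 23 glycolysis, 9 of 27 Wnt and 11 of 30 oxidative phosphorylation genes. DNA replication genes were higher for 3 of 44 in EGF/FGF and 12 in BMP.

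**Figure D3:**
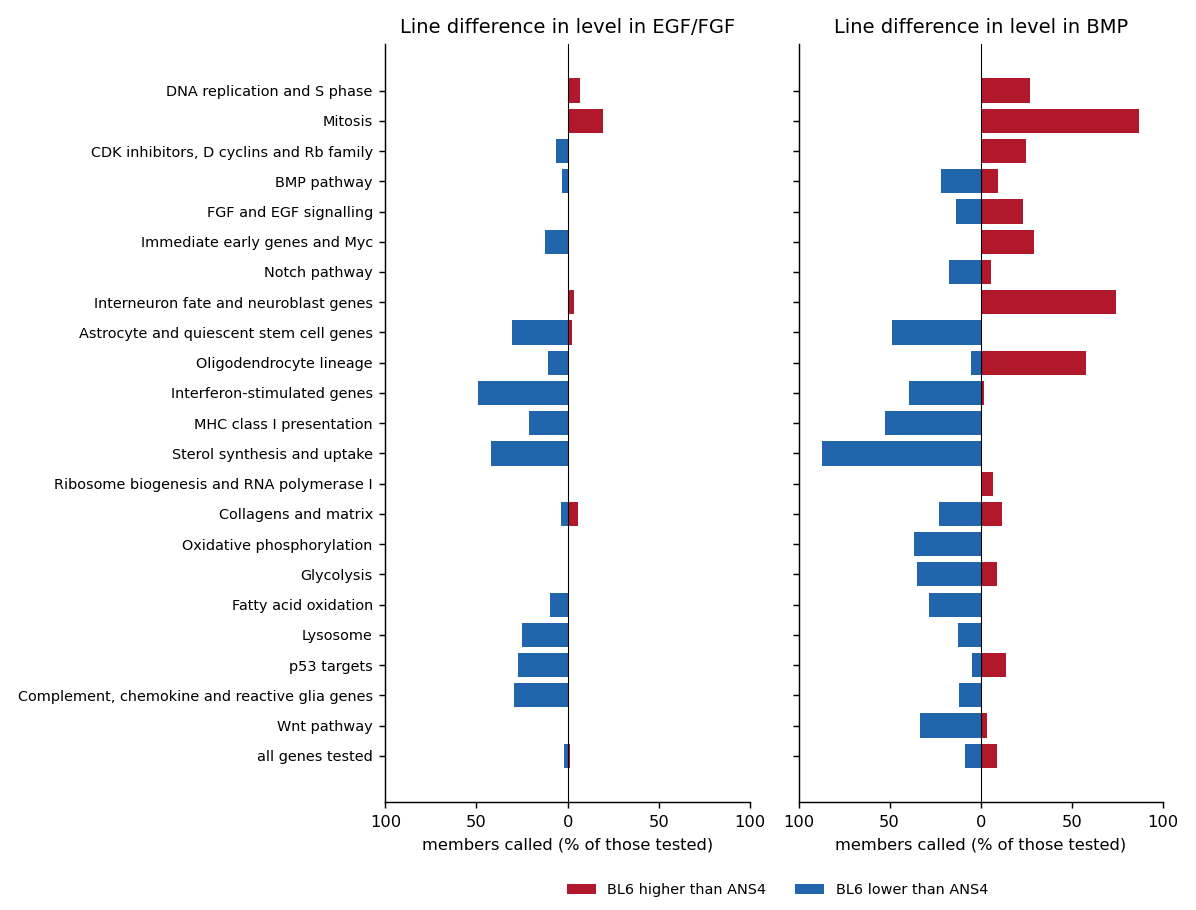
Share of the tested members of each list, in percent, whose level was called higher (red, to the right) or lower (blue, to the left) in BL6 than in ANS4 in EGF/FGF (left) and in BMP (right), with all 13509 genes as the lowest bar. In BMP 40 of 46 mitotic and 20 of 27 interneuron members lie to the right and 27 of 31 sterol members to the left, against 9, 1 and 13 in EGF/FGF.

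Markers of other cell types were summed in each library. Microglial markers (7 of 12 in the table) summed to 59.5 to 69.5 CPM over the 8 libraries, and the defining marker Csf1r was under 3 counts throughout. Endothelial markers summed to 40.1 to 48.9 CPM in EGF/FGF and 10.4 to 14.3 CPM in BMP, and ependymal markers to 67.8 to 85.03 CPM and 277.7 to 323.0 CPM. No member of these 3 lists was called, with 4 of 12 microglial, 3 of 10 endothelial and 6 of 10 ependymal markers tested. Mural and fibroblast markers reached 138.5 to 144.8 CPM in BL6 BMP against 89.4 to 90.5 CPM in ANS4 BMP, from 72.3 to 73.7 CPM and 85.01 to 87.96 CPM in EGF/FGF. The called members of this list were Pdgfra and Cspg4, which oligodendrocyte progenitors share, and Lum, a fibroblast proteoglycan, was under 3 counts. Mature neuron markers were higher in BL6 in both media, at 48.7 to 51.4 CPM against 29.6 to 29.8 CPM in EGF/FGF and at 53.01 to 62.6 CPM against 38.04 to 42.8 CPM in BMP, with the EGF/FGF excess mostly in the neurofilament genes Nefm and Nefl. Without these 2 the sums were 16.2 and 18.4 CPM in BL6 and 16.2 and 15.3 CPM in ANS4 in EGF/FGF, overlapping between the lines, and 45.5 and 54.7 CPM against 30.3 and 34.6 CPM in BMP. For the line difference Snap25 was called higher (1.21 ± 0.30, adjusted p = 0.035) and Nefm lower. Mature oligodendrocyte markers summed to 175.0 to 182.9 CPM in BL6 BMP and 177.9 to 190.8 CPM in ANS4 BMP, with Mobp called lower. The part of admixed cells in the interneuron and oligodendrocyte lineage results was not tested.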

How the data were processed

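Estimated counts per gene were deposited by the authors, who trimmed reads of BGISEQ-500 libraries with Trim Galore 0.5.0, pseudoaligned them to mm10 transcripts with kallisto 0.44.0 and summed transcripts to genes with tximport. The second file holds log2-scale values that the authors obtained from these counts by the rlog of DESeq2 1.27.32, and it served only the limma alternative. The counts came as whole numbers. The processing tools and versions are those of the submitters' notes.

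Genes were filtered with filterByExpr on the 4 groups, scaled by TMM and fitted with edgeR 4.0.16 (R 4.3.3) without a replicate block, and the contrast (BL6 BMP - BL6 EGF/FGF) - (ANS4 BMP - ANS4 EGF/FGF) was tested two-sided with quasi-likelihood. Standard errors are the size of the fold change over the root of F. A Benjamini-Hochberg adjusted p under 0.05 was called. The code was tested on simulated counts. Replicates differed by more than sampling noise, with chi-square per degree of freedom of 3.39 to 10.2. Alternatives were DESeq2 1.42.0 size factors and Wald test, library size scaling, no filter, all 12 libraries, limma 3.58.1 on rlog, 2 replicate blocks and each library left out. Genes that DESeq2 gave no adjusted p were not called.

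Genes named are the 8 largest positive and 8 largest negative line differences at a mean of at least 5 CPM with 1 sign in all 16 pairings of single replicates, the 8 opposite genes with the largest smaller response, 12 genes of the study, and, per list, called members in order of adjusted p with defining members that did not pass. Members and lists were chosen with earlier results of these data known. Intervals cover the spread between these replicates only.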

Additional observations from a re-analysis of the deposited data

Results flagged for a closer look

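The effect of exchanging EGF/FGF for BMP4 differed between the lines, tested as the difference itself, for 607 genes in edgeR's quasi-likelihood fit. The following named genes are among them, with the line difference given as BL6 minus ANS4 in log2. Groups of 2 libraries are too small for a test of single samples standing apart.

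Higher BL6 responses were those of Kit (2.78), Gpr17 (2.51), Plppr1 (2.45), Ifit3b (1.93), Grik3 (1.91), Nacad (1.85), Ifit3 (1.75) and Atcay (1.75). Each of these genes rose in both lines. Lower BL6 responses were those of Brms1 (-6.32), Gm4724 (-2.90), Gm14308 (-2.23), Col8a1 (-1.86), Nptx1 (-1.42), Alpl (-1.37), Slc27a6 (-1.37) and Nefm (-1.34).

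Called in opposite directions in the lines were Ak4 (-1.24), Mgat5b (1.44), Zfp967 (-1.07), Snx22 (0.83), Bbc3 (0.89), Col11a1 (0.84), Basp1 (0.88) and Mns1 (-0.91). Of the genes the study follows, Mki67 (0.54), Ccnd1 (0.83), Myc (0.92), Gfap (0.76) and Fabp7 (-0.78) differed in response.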

How the results depend on the processing

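The 607 calls became 214 (129 higher, 85 lower in BL6) with no filter, 1158 (633 and 525) with all 12 libraries, 603 with DESeq2 size factors, 681 with library size alone, 605 with the DESeq2 Wald test and 460 with limma on rlog (294 and 166). Genes in opposite directions numbered 24 by the Wald test, 18 with no filter and 57 with 12 libraries. Level differences in EGF/FGF numbered 149 with no filter, 887 with 12 libraries and 253 by limma. No filter took the tested genes to 17295, and 12 libraries added residual degrees of freedom. The cause of each change in these counts was not tested. With 1 library left out, the calls ranged from 141 to 1573, higher ones from 91 to 816, lower ones from 49 to 757, opposite ones from 8 to 85, level differences from 40 to 1068 in EGF/FGF and from 958 to 2865 in BMP, and BMP responses from 9239 to 10115 in BL6 and from 8774 to 10244 in ANS4. These fits leave a single library in 1 group, assumed to vary as the others do. No named value changed sign where it was called in either analysis, and list medians changed sign in some alternative only for the astrocyte, BMP, complement, MHC and ribosome biogenesis lists.

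The replicate numbers are shared by the groups, but deviations of same-numbered samples correlated at r = 0.310 in ANS4 and r = -0.0587 in BL6 across genes. No label ties same-numbered samples and the correlations differ between the lines, so the numbers were not used as pairs; what the ANS4 samples share was not tested. A replicate block gave 840 calls, with all 607 among them, and 696 level differences in EGF/FGF. A block within each line gave 635 calls (558 of the 607), 105 level differences in EGF/FGF and 1148 in BMP.

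Called under all 16 alternatives were, among others, Gpr17, Kit, Grik3, Elavl3, Gad1, Ifit1, Ifit3, Gbp2, Pdgfra, Lhfpl3, Myc, Jun, Fos, Ccnd1, Gfap, Gja1, Nptx1, Col8a1, Alpl, Ak4, Basp1, Idi1, Fzd7 and Notch3. With 2 libraries per group a line difference had a median standard error of 0.15 log2, and the smallest called value was 0.34.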

Other observations

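The same lines were also held in BMP4 with FGF2 (BMP/FGF, 2 libraries per line), and the values of the genes above in those libraries are given here beside the EGF/FGF controls they share with the BMP comparison. In the fit of all 12 libraries (13641 genes tested), edgeR's quasi-likelihood test called 98 genes for a level difference between the lines in BMP/FGF, 887 in EGF/FGF and 3116 in BMP. The response from EGF/FGF to BMP/FGF differed between the lines for 658 genes, 420 higher (3.08%) and 238 lower (1.74%) in BL6, against 1158 for the response to BMP in that fit. The libraries labelled ANS4 and BL6 were thus nearest to each other in BMP/FGF by the count of called genes.

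Of 19 oligodendrocyte lineage genes, 4 had a higher and 1 a lower BL6 response to BMP/FGF, and of 27 interneuron and neuroblast genes 1 was called, with a lower one. Gpr17 held 118 and 113 CPM in ANS4 and 129.6 and 129.6 CPM in BL6, Kit 6.18 and 6.27 and 6.22 and 6.75 CPM, Gad1 8.97 and 8.62 and 8.83 and 9.64 CPM, and Pdgfra 50.4 and 51.1 and 51.6 and 52.5 CPM, each pair of replicates in ANS4 before that in BL6. Elavl3 and Dlx2, higher in BL6 in BMP, were at 42.8 and 41.4 and 82.9 and 83.2 CPM in ANS4 BMP/FGF and at 34.1 and 33.3 and 69.9 and 69.8 CPM in BL6 BMP/FGF, so that both BL6 libraries lay under both ANS4 libraries. The line difference of the BMP/FGF response was called for Gpr17 (1.69 ± 0.20, adjusted p = 0.00012), Cspg4 (0.69 ± 0.13, adjusted p = 0.0052), Lhfpl3 (0.60 ± 0.12, adjusted p = 0.0078) and, lower in BL6, Gad2 (-0.91 ± 0.16, adjusted p = 0.0034). It was 1.43 ± 0.41 for Kit (adjusted p = 0.064), 0.22 ± 0.22 for Gad1 (adjusted p = 0.64), -0.24 ± 0.12 for Elavl3 (adjusted p = 0.27) and 0.18 ± 0.11 for Pdgfra (adjusted p = 0.4).

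Mki67, higher in BL6 in both EGF/FGF and BMP, was at 50.6 and 43.8 CPM in ANS4 and 46.6 and 42.9 CPM in BL6 in BMP/FGF, and its response there was called lower in BL6 (-0.60 ± 0.12, adjusted p = 0.0092). Of 46 mitotic genes 0 had a higher and 8 a lower BL6 response to BMP/FGF, with a median of -0.35. Of 31 sterol synthesis and uptake genes 10 had a higher and 0 a lower one, with a median of 0.25. Called members of both lists pointed the other way for BMP. In level, 0 of the 46 mitotic and 0 of the 31 sterol genes were called higher or lower in BL6 in BMP/FGF. The EGF/FGF controls enter both responses. There 9 mitotic genes were called higher and 13 sterol genes lower in BL6 by the fit of 8 libraries. Myc was at 40.8 and 37.1 and 40.7 and 41.2 CPM (line difference 0.02 ± 0.12, adjusted p = 0.95). Of 55 interferon-stimulated genes 26 were called, all with a higher BL6 response, among them Gbp2 at 381 and 376 CPM in ANS4 and 412 and 432 CPM in BL6 (1.40 ± 0.11, adjusted p = 5.6e-06) and Ifit3 at 353 and 329 and 303 and 339.99 CPM (1.89 ± 0.20, adjusted p = 4.9e-05). In level, 0 of these 55 genes were called higher and 0 lower in BL6 in BMP/FGF, against 0.718% of all genes in either direction. The EGF/FGF controls, where 25 of 51 members were lower in BL6 by the fit of 8 libraries, enter both responses. The difference between the BMP and BMP/FGF line differences was not tested.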
